A study of Ictalurus furcatus with 6 samples.

Results

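Sertoli and Leydig cells are the somatic cells that support spermatogenesis in the testis, and 10 of their marker genes were followed here in RNA-seq libraries of blue catfish sperm. The genes were *star*, *cyp11a1*, *cyp17a1*, *cyp11c1* and *lhcgr* for Leydig cells, and *amh*, *gsdf*, *dmrt1*, *sox9a* and *fshr* for Sertoli cells. They were looked up by gene name, ignoring case and with or without a final a or b, among 27416 features in the expression table. Of the 10 genes, 7 were found, with 1 feature each, namely *star*, *cyp11c1*, *lhcgr*, *amh*, *fshr*, *dmrt1* and a feature named *sox9* without a paralog letter. No feature carried the name *cyp11a1*, *cyp17a1* or *gsdf*, and these 3 genes have no value here. Expression values were treated as CPM, that is as counts scaled to the total of their library and not divided by gene length, so levels are compared between samples and not between genes.

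In the testis, Leydig cells lie between the seminiferous tubules or lobules and make androgens under the control of luteinizing hormone. Cholesterol is carried into the mitochondrion by Star, its side chain is cleaved there by Cyp11a1, and Cyp17a1 and Cyp11c1 act further along the route, which in fishes ends in 11-oxygenated androgens. Sertoli cells enclose the developing germ cells, respond to follicle-stimulating hormone through Fshr, and secrete growth factors such as Amh and, in fishes, Gsdf. Steroidogenic enzymes and Amh are classical products of these somatic cells, which is why such genes are used to look for them in a sperm sample.

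All samples were testicular sperm of blue catfish males, *Ictalurus furcatus*, of the strain that the labels give as D&B. Because testes are dissected for sperm collection in this species, sperm were obtained from testis tissue washed in Hank's balanced salt solution and not by stripping. Samples of the fresh-frozen group (F2 and F3) were flash-frozen in liquid nitrogen, whereas those of the cryopreserved group (C2, C3 and C5) were diluted, received methanol as cryoprotectant and were cooled in straws at a controlled rate. The methods describe the extraction of sperm from the remaining testis tissue after the fresh-frozen samples were taken, and whether the latter went through the same extraction is not stated in the sources used here. Both kinds were thawed in the same way before RNA extraction. The number in a name is that of the male, so F2 and C2 shared a male, as did F3 and C3. The labels list a further fresh-frozen sample, F5, which was not analysed here. C2 was sequenced as 2 technical replicates, which were averaged into 1 sample.

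The libraries differed in more than the markers. The share of features above 1 CPM was 94.6% in F2, 97.0% in F3, 93.0% in C2, 92.5% in C3 and 62.0% in C5. Features listed at 0 numbered 537 in F2, 99 in F3 and 2664 in C5, with none in C2 or C3. The lowest values of C2 and C3 were 0.020 and 0.026 CPM, which may not be scaled counts. The lack of zeros there thus need not mean that every feature was detected. The median feature had 15.7, 15.6, 9.55, 15.0 and 2.03 CPM in F2, F3, C2, C3 and C5, so most features lay lower in cryopreserved sperm as a whole. The 27255 features tested had a median log2 fold change of -1.02 between the groups, and it was positive for 25% of them. Each marker gene is therefore given beside this shift. The table gives scaled values without read totals, so no interval for counting error is given.

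None of the 7 marker genes passed the test between the groups, as higher or as lower in cryopreserved sperm. A feature was called when its log2 fold change was above 2 or below -2 and its Benjamini-Hochberg FDR from limma was below 0.05. At these thresholds 1.54% of all features tested were called higher and 0% lower, against 0 of 7 markers in each direction. At an unadjusted *p* below 0.05, 6.89% of all features were higher and 11.3% lower, against 0 of 7 markers in each direction. The direction of the difference was not shared by the markers, since *star* lay above fresh-frozen sperm in every cryopreserved sample and *lhcgr*, *fshr* and *dmrt1* below it in every one. Among all features, every cryopreserved sample lay above both fresh-frozen samples in 13.6% and below both in 41.7%, so 1 and 3 of 7 markers are near what the whole table gives. In bulk samples, fewer cells of a type and less RNA per cell cannot be told apart.

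**Figure D1:**
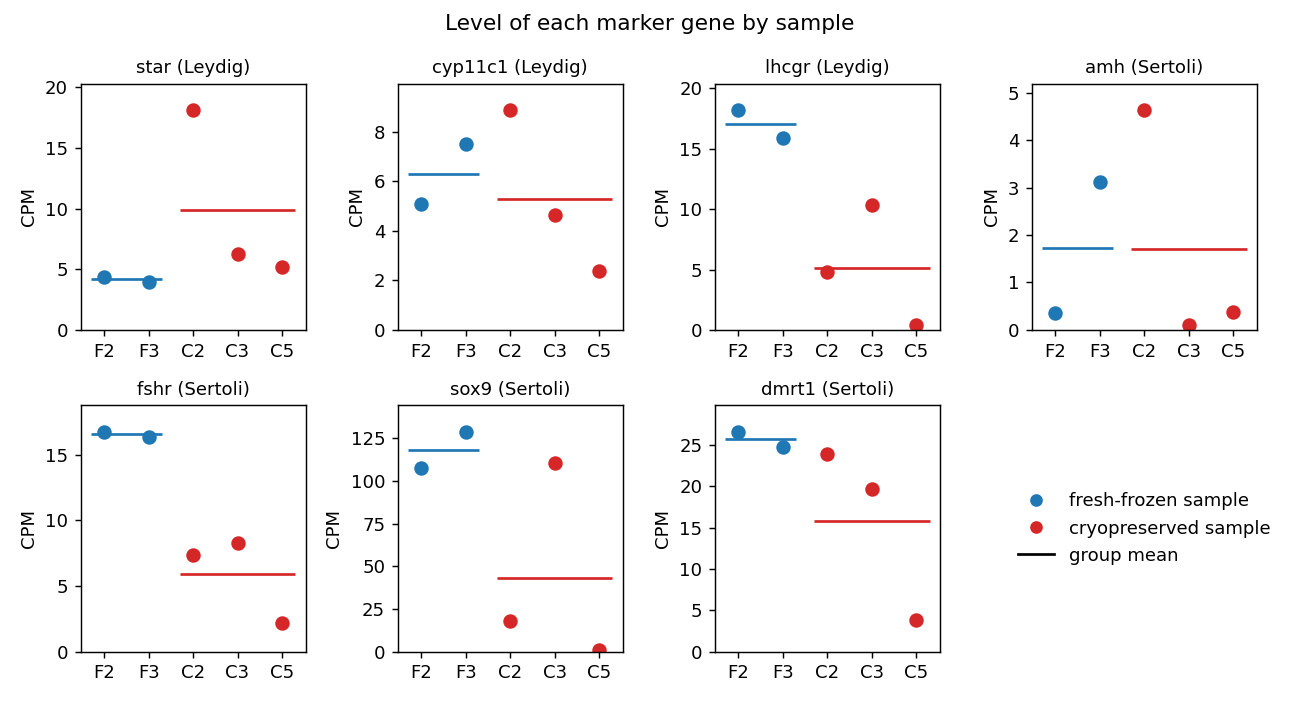
Expression level in CPM (y axis, starting at 0 in each panel) of the 7 marker genes in each sample (x axis), with points for samples and lines for group means. *star* was highest in C2 at 18.1 CPM, *lhcgr* and *fshr* were lower in C2, C3 and C5 than in F2 and F3, and *sox9* in C3, at 111 CPM, lay within the fresh-frozen range.

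Of the Leydig cell genes, *star* (AUIFUG00000002357), whose product moves cholesterol to the inner mitochondrial membrane, measured 4.37 (F2) and 3.95 CPM (F3) in fresh-frozen against 18.1 (C2), 6.22 (C3) and 5.22 CPM (C5) in cryopreserved sperm. The groups did not overlap, but C3 and C5 lay close to the fresh-frozen samples and C2 far above them. The group means were 4.16 ± 0.295 (SD, n = 2, fresh-frozen) and 9.85 ± 7.17 CPM (SD, n = 3, cryopreserved). On log2(CPM + 1), the scale of all fold changes here, which understates the change of low features, the log2 fold change was 0.88 ± 0.97 (SE, 95% interval -1.24 to 3.01, limma FDR = 0.531). It was 0.38 without C2, and 1.87, 1.93 and 1.83 with TMM rescaling, median centring and quantile normalization, where the unadjusted limma *p* was 0.0474, 0.0271 and 0.0321 and the FDR 0.308, 0.237 and 0.150. Relative to the median of all features it was 1.90, and over the 17 alternative ways of processing and the values as reported this relative value ranged from 1.15 to 2.43. Within the males that gave both kinds of sample, the difference in log2(CPM + 1) was 1.83 in male 2 and 0.54 in male 3.

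*cyp11c1* (AUIFUG00000000043) encodes the steroid 11-beta-hydroxylase of fishes. It measured 5.09 (F2) and 7.49 CPM (F3) in fresh-frozen against 8.87 (C2), 4.64 (C3) and 2.38 CPM (C5) in cryopreserved sperm. C2 was the highest sample of all and C5 the lowest, so the groups overlapped. The log2 fold change of -0.33 ± 0.94 (SE, 95% interval -2.39 to 1.74, limma FDR = 0.817) was above the median of all features by 0.69, and it became positive, at 0.66 to 0.72, with TMM rescaling, median centring and quantile normalization. With either the male as a replicate block or C5 left out it was 0.054, since the block fit compares males 2 and 3 only.

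*lhcgr* (AUIFUG00000018354), the luteinizing hormone receptor through which Leydig cells are stimulated, behaved in the opposite way to *star*. It measured 18.2 (F2) and 15.9 CPM (F3) in fresh-frozen against 4.81 (C2), 10.3 (C3) and 0.371 CPM (C5) in cryopreserved sperm. Every cryopreserved sample lay below both fresh-frozen samples, with C3 nearest to them. The group means were 17.0 ± 1.66 (SD, n = 2, fresh-frozen) and 5.17 ± 4.98 CPM (SD, n = 3, cryopreserved), a log2 fold change of -2.01 ± 1.09 (SE, 95% interval -4.39 to 0.38, limma FDR = 0.273). It stayed negative in all 17 alternatives, between -2.67 and -0.95, and relative to the median of all features it was -0.99.

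The ratio of *star* to *lhcgr* within a library does not depend on how libraries are scaled to each other. It was 0.240 in F2 and 0.249 in F3, and 3.76 in C2, 0.603 in C3 and 14.1 in C5. The C5 ratio divides by *lhcgr* at 0.371 CPM. Low values of that library had a best step of 0.345 CPM, though only 34.2% of them lay near its multiples. The genes *smtlb* and *fshb* were listed lower there, at 0.210 and 0.0477 CPM, so this step need not be that of 1 read. How many reads the *lhcgr* level stands for cannot be told, and the size of the C5 ratio is uncertain. The ratios of C2 and C3 also lay above those of F2 and F3, so these markers of the same cell type did not keep 1 ratio. This pair was chosen after its values were seen, and its difference between the groups is given without a test.

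Outside the naming rule, and also chosen after the values were seen, the table has a feature named *cyp11a* and another named *cyp17*. The first name is used for the side-chain cleavage enzyme, and for the other the table does not say which *cyp17* paralog is meant. *cyp11a* (AUIFUG00000021950) measured 3.27 (F2) and 6.11 CPM (F3) in fresh-frozen against 20.6 (C2), 5.47 (C3) and 1.69 CPM (C5) in cryopreserved sperm. It was highest in C2, as *star* and *cyp11c1* were, and its groups overlapped. Its log2 fold change was 0.39 ± 1.07 (SE, limma FDR = 0.808). *cyp17* (AUIFUG00000024439) measured 79.1 (F2) and 78.1 CPM (F3) in fresh-frozen against 19.2 (C2), 63.9 (C3) and 2.36 CPM (C5) in cryopreserved sperm, in each cryopreserved sample under both fresh-frozen values. The log2 fold change was -2.28 ± 1.14 (SE, limma FDR = 0.266), which is not significant.

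Of the Sertoli cell genes, *amh* (AUIFUG00000016735), the anti-Müllerian hormone, was near the lower end of the table. It measured 0.347 (F2) and 3.12 CPM (F3) in fresh-frozen against 4.63 (C2), 0.11 (C3) and 0.380 CPM (C5) in cryopreserved sperm. High and low samples occurred in both groups, which overlapped. In F2, low values lay near whole multiples of 0.367 CPM, so the value there is about that of 1 read. In C3 the best step was 0.817 CPM, near multiples of which only 47.5% of low values lay, so the level of 0.11 CPM may not be a scaled count. The technical replicates of C2 gave 2.57 and 6.70 CPM, a ratio of 2.60 within the same sample. The log2 fold change was -0.20 ± 0.84 (SE, 95% interval -2.03 to 1.63, limma FDR = 0.875), and its sign changed in 7 of 16 alternatives, among them TMM rescaling, median centring and quantile normalization. *amh* had no value with a group mean above 5 CPM required.

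*fshr* (AUIFUG00000008746), the receptor for follicle-stimulating hormone on Sertoli cells, was the most even marker in fresh-frozen sperm. It measured 16.8 (F2) and 16.3 CPM (F3) in fresh-frozen against 7.33 (C2), 8.27 (C3) and 2.21 CPM (C5) in cryopreserved sperm. Every cryopreserved sample lay below both fresh-frozen samples, and C2 and C3 were close to each other. The group means were 16.6 ± 0.291 (SD, n = 2, fresh-frozen) and 5.94 ± 3.26 CPM (SD, n = 3, cryopreserved), with a log2 fold change of -1.48 ± 0.98 (SE, 95% interval -3.62 to 0.65, limma FDR = 0.321). It was -0.44, -0.43 and -0.42 with TMM rescaling, median centring and quantile normalization, and -1.0 without C5. Relative to the median of all features it was -0.46. By male, the difference in log2(CPM + 1) was -1.09 in male 2 and -0.90 in male 3.

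*sox9* (AUIFUG00000011581), a transcription factor of Sertoli cell differentiation that is also used in cartilage and other tissues, spanned the widest range of the 7 markers. It measured 108 (F2) and 129 CPM (F3) in fresh-frozen against 17.7 (C2), 111 (C3) and 0.873 CPM (C5) in cryopreserved sperm. C3 lay between the fresh-frozen samples, while C2 and C5 were far below them, so the groups overlapped through C3 alone. The log2 fold change was -2.92 ± 1.36 (SE, 95% interval -5.89 to 0.06, limma FDR = 0.265). Without C3 it was -4.33 and passed the test (FDR = 0.00448 from limma), in a fit in which 25.6% of all features were called lower. It was -1.38 both without C5 and with the male as a replicate block, and -1.94, -1.87 and -2.21 with TMM rescaling, median centring and quantile normalization, and did not pass in any of these. Relative to the median of all features in the same sample, *sox9* differed from the fresh-frozen mean by -1.93 (C2), 0.12 (C3) and -4.06 (C5) on the log2 scale.

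*dmrt1* (AUIFUG00000011312) is a transcription factor of the male gonad that is known from Sertoli cells and also from germ cells. It measured 26.6 (F2) and 24.8 CPM (F3) in fresh-frozen against 23.9 (C2), 19.7 (C3) and 3.86 CPM (C5) in cryopreserved sperm. C2, C3 and C5 were each below F2 and F3, but C2 by less than the technical replicates of C2 differed, which had 27.4 and 20.4 CPM. The log2 fold change of -0.97 ± 1.0 (SE, 95% interval -3.17 to 1.22, limma FDR = 0.504) was within 0.05 of the median of all features, and became 0.12 with TMM rescaling and 0.078 with median centring or quantile normalization.

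The ratio of *sox9* to *dmrt1* within a library was 4.05 in F2, 5.20 in F3 and 5.62 in C3, and 0.739 in C2 and 0.226 in C5. The ratio of *fshr* to *dmrt1* moved less, at 0.630 and 0.660 in F2 and F3, and 0.307, 0.420 and 0.573 in C2, C3 and C5. C3 thus resembled the fresh-frozen libraries in the *sox9* ratio but not in that of *fshr*. These ratios were also chosen with the values known.

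**Figure D2:**
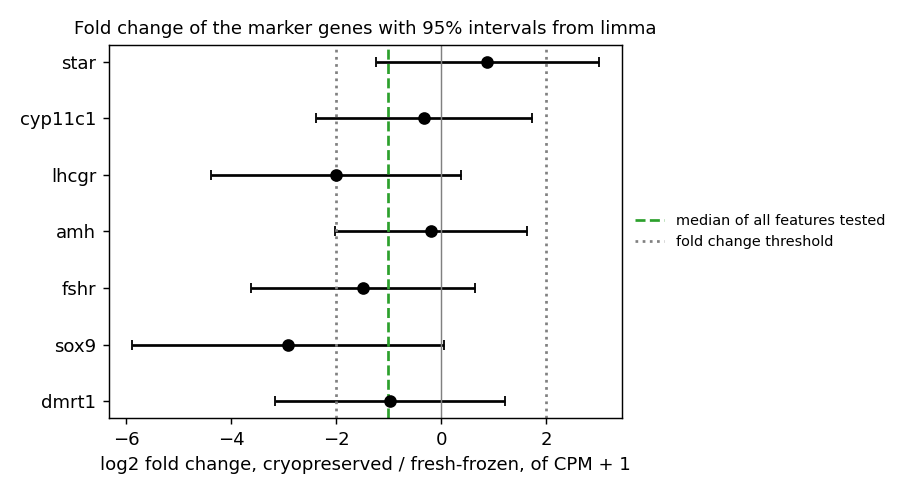
Log2 fold change of CPM + 1 between cryopreserved and fresh-frozen sperm (x axis) for the 7 marker genes, with points for the limma estimate and bars for its 95% interval. All 7 intervals include 0, from *sox9* at -2.92 to *star* at 0.88, and the dashed line marks the median of all features at -1.02.

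The place of each marker within its own library is free of the scaling between libraries. Among all features of a library, *star* was at percentile 24.8 in F2 and 20.2 in F3, and at 65.5 in C2, 32.0 in C3 and 64.1 in C5. *lhcgr* was at percentile 53.5 in F2 and 50.5 in F3, and at 34.0 in C2, 41.8 in C3 and 23.1 in C5. *sox9* was at percentile 91.5 in F2, 94.1 in F3 and 92.5 in C3, and at 65.0 in C2 and 36.8 in C5. *dmrt1* stayed between percentiles 56.2 and 71.7 in all 5 samples, and *fshr* between 37.2 and 51.8. *cyp11c1* was at 27.3 in F2 and 33.5 in F3 against 48.1 in C2, 26.6 in C3 and 53.0 in C5, and *amh* ranged from 2.47 in F2 to 33.1 in C2. By this measure *star* stood higher in all cryopreserved samples and *lhcgr* lower, while *dmrt1* was higher in C2 and lower in C3 and C5 than in either fresh-frozen sample. The share of all features that separate the groups by percentile was not computed, so neither is read as particular to these genes. A percentile also depends on how low the other features lie. In C5, where 62.0% of features were above 1 CPM, *cyp11c1* had its lowest level, 2.38 CPM, and its highest percentile. Since values are not divided by gene length, a percentile does not rank a gene by transcripts per cell.

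**Figure D3:**
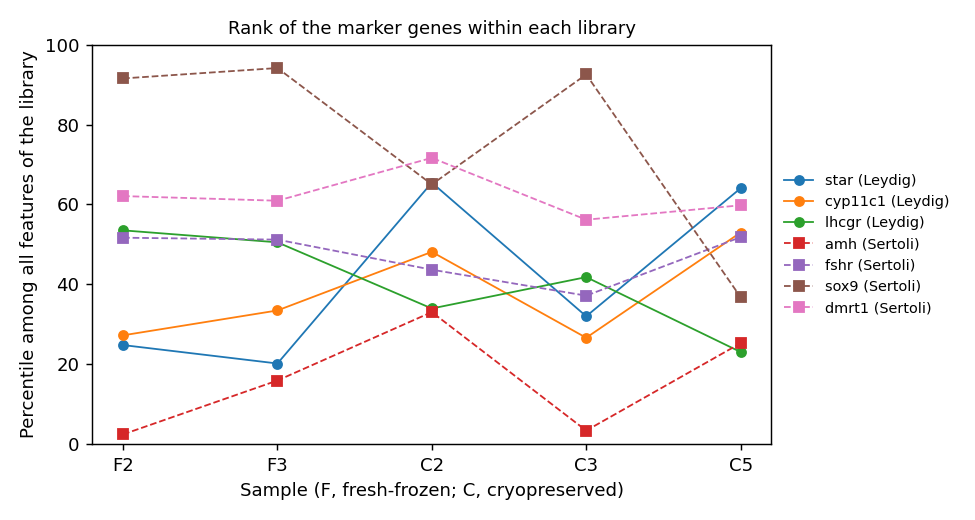
Percentile of each marker gene among the 27416 features of a library (y axis, 0 to 100) in each sample (x axis), with solid lines for Leydig and dashed lines for Sertoli cell genes. *star* was lowest in F3 at 20.2 and highest in C2 at 65.5, while *sox9* was at 91.5 or above in F2, F3 and C3 and at 36.8 in C5.

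Summed over the 7 markers, the level was 179 (F2) and 200.3 CPM (F3) in fresh-frozen against 85.3 (C2), 160.0 (C3) and 15.3 CPM (C5) in cryopreserved sperm. In F2, F3 and C3 most of the sum came from *sox9*. Without it, a choice made after seeing the values, the sum was 71.4 (F2) and 71.5 CPM (F3) in fresh-frozen against 67.7 (C2), 49.3 (C3) and 14.4 CPM (C5) in cryopreserved sperm. C2 was then close to the fresh-frozen samples, and C5 was lowest in either case. The Leydig markers alone summed to 27.7 (F2) and 27.3 CPM (F3) in fresh-frozen against 31.8 (C2), 21.2 (C3) and 7.97 CPM (C5) in cryopreserved sperm, while the Sertoli markers summed to 152 and 173 CPM, and 53.5, 139 and 7.32 CPM, in the same order. The 3 Leydig markers had a median log2 fold change of -0.33 and the 4 Sertoli markers one of -1.23, beside -1.02 for all features. With TMM rescaling, median centring and quantile normalization the former became 0.66, 0.72 and 0.70 and the latter -0.16, -0.18 and -0.17. The median difference per sample had an SD over C2, C3 and C5 of 0.77 for the Leydig and 1.06 for the Sertoli markers, beside 0.88 for all features. That spread holds the shift shared by all features of a library, so it does not measure the spread of a difference from all features. Whether either median differs from that of all features was not tested.

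The other genes of steroid synthesis were described by a list of 33 genes, 29 of which had 31 features. Of the 31, 1 was called higher, 0 were called lower and 30 did not pass. At an unadjusted *p* below 0.05 in limma, 1 was higher and 1 lower. Of all features, 1.54% were called higher and 0% lower, and 6.89% were higher and 11.3% lower at that *p*. The gene that rose was *tspo* (AUIFUG00000016505), the translocator protein of the outer mitochondrial membrane, which is abundant in steroid-making cells and found in many others. It measured 8.02 (F2) and 4.86 CPM (F3) in fresh-frozen against 282 (C2), 122 (C3) and 469 CPM (C5) in cryopreserved sperm, a log2 fold change of 5.13 ± 0.78 (SE, limma FDR = 0.00938). With median centring, with a constant prior in limma or without C2, no feature of the table was called higher, *tspo* and the flagellum genes included. *tspo* was highest in C5, where *lhcgr*, *cyp11c1* and *sox9* were lowest. The list as a whole had a median log2 fold change of -0.94, and 16 of its 31 features lay above the median of all features. *hsd17b4*, a peroxisomal enzyme of fatty acid breakdown and steroid oxidation, had a log2 fold change of -0.19 (FDR = 0.813 from limma).

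Further Sertoli cell genes were described by a list of 30 genes, of which 26 had 38 features. None of the 38 was called in either direction by limma, and at an unadjusted *p* below 0.05 there were 0 higher and 5 lower. Among all features 6.89% were higher and 11.3% lower at that *p*. The 38 features had a median log2 fold change of -1.39, with 17 of 38 above the median of all features. It was positive for 6 and negative for 32, beside 25% positive among all features. The 5 lower ones were *KITLG* at -2.61, *gdnf* at -3.10, *wt1b* at -3.14, *oclna* at -3.29 and *fstb* at -2.76. *tjp1b*, a tight junction protein, measured 191 (F2) and 205 CPM (F3) in fresh-frozen against 116 (C2), 168 (C3) and 130.3 CPM (C5) in cryopreserved sperm. *krt8*, an epithelial keratin, measured 147 (F2) and 76.8 CPM (F3) in fresh-frozen against 246 (C2), 125 (C3) and 45.5 CPM (C5) in cryopreserved sperm. *tjp1b* and *krt8*, named for the highest means of the list, are made by many epithelia. Neither separated the groups by a test (FDR = 0.484 and 0.946 from limma).

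The germ cells of the same libraries give a scale for the markers. A list of 26 genes of spermatogonia and meiosis, with 28 features of 23 genes, had a median log2 fold change of -1.22, with 0 features called. At an unadjusted *p* below 0.05 in limma, 1 was higher and 4 were lower, beside 6.89% and 11.3% of all features. The summed markers were 10.3% and 12.5% of the sum of this list in F2 and F3, and 8.40%, 9.82% and 1.78% in C2, C3 and C5. Without *sox9* they were 4.10% and 4.46%, and 6.66%, 3.02% and 1.68%. Relative to these germ cell genes, C5 was thus lowest in both versions, and C2 was highest once *sox9* was left out. *nxt2*, a gene of RNA export, had a log2 fold change of 2.39 ± 0.54 (SE, limma FDR = 0.0521) and missed the threshold. It measured 55.0 (F2) and 52.6 CPM (F3) in fresh-frozen against 249 (C2), 248 (C3) and 378 CPM (C5) in cryopreserved sperm. The sum of the list, which forms the denominator, was 1739, 1606, 1016, 1629 and 858 CPM in the same order. In C5, *nxt2* alone made up 378 of these 858 CPM, against 55.0 of 1739 CPM in F2. The low shares of C5 thus depend in part on this gene, and shares without it were not computed. *piwil2*, a germline protein of the piRNA pathway, measured 209 (F2) and 222 CPM (F3) in fresh-frozen against 89.8 (C2), 183 (C3) and 136 CPM (C5) in cryopreserved sperm.

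A list of 32 spermatid and flagellum genes, with 29 features of 21 genes, was read in the same way. Of the 29 features, 7 were called higher, 0 lower and 22 did not pass, with a median log2 fold change of 0.96, and 17 had a positive and 12 a negative one. At an unadjusted *p* below 0.05 in limma, 13 were higher and 2 lower. The shares of all features were 1.54% called higher and 0% lower, and 6.89% and 11.3% at that *p*. The 4 with the lowest FDR were *tekt1*, *cfap53*, *odf3b* and *SPAG6*, all genes of the sperm tail or axoneme, with log2 fold changes of 4.66, 4.85, 4.62 and 5.13. Among the 12 with a negative one were *tekt3* at -2.60 and *dnah1* at -1.66, neither of them called. Several of the 12 shared the name *dnah5* or *DNAH5*, so they do not stand for 12 different genes. *tekt1*, a tektin of the axoneme, measured 98.0 (F2) and 104 CPM (F3) in fresh-frozen against 2526 (C2), 1279.9 (C3) and 5292 CPM (C5) in cryopreserved sperm (log2 fold change 4.66 ± 0.49 SE, limma FDR = 0.00399). The summed somatic markers were 9.72% and 10.7% of the sum of this list in F2 and F3, and 1.01%, 3.31% and 0.0999% in C2, C3 and C5. The order of the samples was the same without *sox9*, at 3.87% and 3.81% in F2 and F3, and 0.805%, 1.02% and 0.0942% in C2, C3 and C5, apart from F2 and F3, which changed places. The summed flagellum genes, which form the denominator, were 1845 CPM in F2, 1879 in F3, 8411 in C2, 4836 in C3 and 15313 in C5. Of the C5 sum, *tekt1* alone made up 5292 CPM. The numerator without *sox9* was 71.4, 71.5, 67.7, 49.3 and 14.4 CPM in the same order. In C2 the share thus fell mostly through the larger denominator, and in C3 and C5 through both parts. A lower share is therefore not a measure of a lower marker level.

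**Figure D4:**
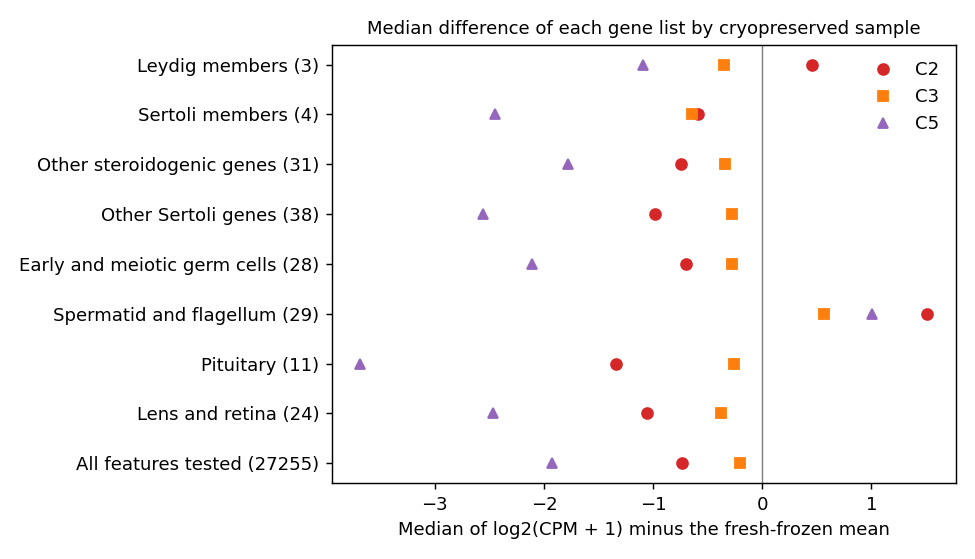
Median over each gene list (number of features tested in brackets) of the difference in log2(CPM + 1) from the mean of F2 and F3 (x axis) in C2, C3 and C5. The spermatid and flagellum list is above 0 in all 3 samples, while the Sertoli markers and all features tested are below 0 in each and lowest in C5, at -2.45 and -1.93.

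Genes best known from the pituitary, and from the lens and retina, were read in the same way, from lists added after the data were seen. Whether cells of the testis make any of them was not tested. Of the pituitary genes, *gh*, growth hormone, measured 60.5 (F2) and 65.4 CPM (F3) in fresh-frozen against 17.3 (C2), 62.4 (C3) and 0.870 CPM (C5) in cryopreserved sperm. *fshb*, the hormone subunit that Fshr answers to and a choice made after its values were seen, measured 43.0 (F2) and 20.0 CPM (F3) in fresh-frozen against 6.74 (C2), 15.6 (C3) and 0.0477 CPM (C5) in cryopreserved sperm. Since few of the low values of C5 lay near multiples of its best step, whether the last value is a scaled count cannot be told. Of the 2 features named *pomc*, the precursor of corticotropin, that with the higher mean (AUIFUG00000020542) measured 33.2 (F2) and 42.5 CPM (F3) against 27.5 (C2), 43.0 (C3) and 11.7 CPM (C5). The other (AUIFUG00000015065) measured 51.4 (F2) and 44.2 CPM (F3) against 2.66 (C2), 21.2 (C3) and 0 CPM (C5). Their log2 fold changes were -0.62 and -3.49 (limma FDR = 0.627 and 0.265). In C5, *gh* and *fshb* were below 1 CPM, as *lhcgr*, *sox9* and *amh* were. Of the retina genes, *pde6b* and *PDE6A*, subunits of the rod phosphodiesterase, had log2 fold changes of -3.18 and -3.37 and did not pass (both limma FDR = 0.265). All 11 pituitary features were above 1 CPM in F2, F3 and C2, 10 were in C3 and 1 was in C5. Of the 24 lens and retina features, 22, 24, 22, 19 and 5 were above 1 CPM in F2, F3, C2, C3 and C5, and of the 7 markers 6, 7, 7, 6 and 4 were. Of all features, 94.6%, 97.0%, 93.0%, 92.5% and 62.0% were above 1 CPM in the same order. Most features of each of these lists were thus above 1 CPM in F2, F3, C2 and C3. In C5 a larger share of the markers than of the pituitary, lens and retina features was, but 4 of 7 is near the 62.0% of all features. The difference between the lists was not tested.

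The 11 pituitary features had a median log2 fold change of -1.91 and the 24 lens and retina features one of -1.67, with 0 called in either list. At an unadjusted *p* below 0.05 in limma, 2 and 4 were lower and 0 higher, beside 11.3% lower and 6.89% higher among all features. *lhcgr* at -2.01 and *fshr* at -1.48 lay near these medians, and *star* at 0.88 lay above the fold change of every pituitary feature, the highest of which was -0.62. Among the lens and retina features the highest fold change was 1.04, above that of *star*. What the members share with these genes was not tested.

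The named features whose profile over the 5 samples was most like that of *star* were *PIEZO1*, *ACADM* and *FRYL*, at a root mean square distance of 0.08, 0.10 and 0.11 on the centred log2(CPM + 1) scale. For *amh* they were *DST*, *mespbb* and *GNAZ*, at 0.14, 0.21 and 0.21. Out of 19519 named features compared, 45 lay within 0.25 of *star* and 11 within 0.25 of *amh*, and with 5 samples a close profile is a description only.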

How the data were processed

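Poly(A) RNA libraries of sperm were sequenced. The authors trimmed reads with Trimmomatic (version 0.39), aligned them with TopHat (version 2.1.1) to a blue catfish assembly and counted them per gene with HTSeq. The genome build is not given in the sources used here. The deposited sample values are called RPKM, but every column sums to between 992942 and 997458, and they were treated as CPM. A column of mean log2 CPM that the authors deposited ranked features as the sample means did (Spearman's ρ = 1.0) and served only for this check. Of the low F2 values, from 0.1 to 2 CPM, 100% lay within 0.1 steps of whole multiples of 0.367 CPM, but in the other columns 33.3% to 62.9% did at their best step, so reads were not recovered and no count test was run.

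Cryopreserved samples (n = 3) were compared with fresh-frozen samples (n = 2) on log2(CPM + 1) with limma 3.58.1 under R 4.3.3, whose trended prior had 8.59 degrees of freedom. The 27255 features whose mean exceeded 1 CPM in at least 1 group were kept. An FDR was adjusted over all of these by the Benjamini-Hochberg method. An exact permutation test of a gene cannot go below 0.1 with these group sizes. A simulation of the test was also run. Its outcome is not given here, and no conclusion about the FDR is drawn from it. Same-numbered samples come from the same male, as the study states. The difference between males 2 and 3 had a correlation of -0.0181 across features between the fresh-frozen and the cryopreserved samples.

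The members, the gene lists and the tests were chosen with earlier results of these data known. The pituitary and the lens and retina lists and the sum without *sox9* were added after the values were seen. Genes named by rule were all members found, the 2 genes of each list with the highest mean, up to 4 called genes of each list by FDR, and the 3 closest profiles to *star* and *amh*. Others were named outside this rule, with the values known. They were *cyp11a*, *cyp17*, *fshb*, *smtlb*, the other *pomc*, *tekt3*, *dnah1*, *dnah5*, *hbaa1* and the further Sertoli cell genes that were lower at an unadjusted *p* below 0.05 in limma. The limma p-values rest on the spread between samples of a group and on the prior over all features, which gave 8.59 of 11.6 degrees of freedom. The fit as reported did not use the shared males. Within a group, the spread between males cannot be told apart from that between libraries, and it covers these males only. Alternatives covered the pseudocount, the filter, rescaling (with TMM factors computed on CPM), the prior, the replicate block, the technical replicates of C2 and each sample left out. Figures used Python 3.11.15 and matplotlib 3.10.9. Sequences and coordinates are not used here.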

Additional observations from a re-analysis of the deposited data

How the results depend on the processing

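Under the 17 alternatives no marker was called higher, and 1, *sox9*, was called lower, without C3 (log2 fold change -4.33). *star* stayed positive and *lhcgr*, *fshr* and *sox9* stayed negative in all 17, *star* between 0.38 and 1.93, *fshr* between -1.76 and -0.42 and *sox9* between -4.33 and -1.38. The signs of the others depended on the scaling between libraries. Those of *cyp11c1* and *amh* also changed with the replicate block and with some samples left out. *cyp11c1* became 0.66 with TMM rescaling, 0.72 with median centring, 0.70 with quantile normalization and 0.054 with the male as a replicate block, and ranged from -0.72 to 0.054 with a sample left out. *dmrt1* became 0.12, 0.078 and 0.078 with the 3 rescalings and ranged from -1.41 to -0.23 with a sample left out. *amh* became 0.39, 0.85 and 0.73 with the rescalings and 0.087 with the replicate block, and ranged from -1.01 to 0.61 with a sample left out. The median of the Leydig markers became 0.66, 0.72 and 0.70, and that of the Sertoli markers -0.16, -0.18 and -0.17, with the 3 rescalings. With a sample left out they ranged from -0.72 to 0.054 and from -1.55 to -0.61. The median of all features was -0.16 with TMM rescaling, -0.22 with quantile normalization and 0.031 with median centring, and ranged from -1.35 to -0.53 with a sample left out. The causes of these changes were not tested, beyond what the rescalings set by construction.

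The number of features called higher was 421 as reported and became 156 with a pseudocount of 0.1, 670 with one of 5, 1420 with quantile normalization, 1136 with the replicate block, and 0 under both median centring and a constant prior. With a sample left out it ranged from 0 without C2 to 1840 without C3. The number called lower was 0 as reported and became 4 with a pseudocount of 5, 100 with quantile normalization, 120 with the replicate block, and 2 and 1 with the first and the other technical replicate of C2. With a sample left out it ranged from 0 to 6965, the latter without C3, and was 25 without C5. The replicate block changed no call of a marker. The table gives no read totals, and the groups hold 2 and 3 samples. The 95% interval of each of the 7 markers includes 0 and reaches to -1.24 or lower. The upper ends lay between 0.06 for *sox9* and 3.01 for *star*, with 1.74 for *cyp11c1*, 1.63 for *amh* and 1.22 for *dmrt1*.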

Other observations

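Other cell types that testis tissue can hold were read from lists of their genes. Of the 18 features for blood cells, 1 was called higher and 0 lower, and at an unadjusted *p* below 0.05 in limma 4 were higher and 1 lower. The shares of all features were 1.54% called higher and 0% lower, and 6.89% and 11.3% at that *p*. *HBB* (AUIFUG00000034633), a beta globin, measured 16.8 (F2) and 7.41 CPM (F3) in fresh-frozen against 2532 (C2), 390 (C3) and 91.5 CPM (C5) in cryopreserved sperm, a log2 fold change of 5.20 ± 1.09 (SE, limma FDR = 0.0389). *alas2*, the erythroid enzyme of heme synthesis, measured 127 (F2) and 118 CPM (F3) in fresh-frozen against 637 (C2), 214 (C3) and 83.2 CPM (C5) in cryopreserved sperm, and did not pass (FDR = 0.419 from limma). Both were highest in C2, the library in which *star* was also highest, at 18.1 CPM. The summed level of the blood list was 811 (F2) and 737 CPM (F3) in fresh-frozen against 4121 (C2), 1313 (C3) and 643 CPM (C5) in cryopreserved sperm. In C2, *HBB* alone made up 2532 CPM of it. The list did not move as a whole, with 8 positive and 10 negative log2 fold changes and a median of -0.83, beside -1.02 for all features. *hbaa1*, the other globin of the list, measured 19.0 (F2) and 8.58 CPM (F3) against 8.56 (C2), 6.82 (C3) and 0.535 CPM (C5), a log2 fold change of -1.51. With median centring, with a constant prior in limma or without C2, *HBB* was not called, since no feature of the table was. The part of blood in the values of *star* was not tested.

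Of the 17 features for peritubular and smooth muscle cells and of the 13 for endothelium, 0 were called in limma. At an unadjusted *p* below 0.05 the muscle list had 0 in either direction, and the endothelial list 0 higher and 2 lower. Among all features 6.89% were higher and 11.3% lower at that *p*. *acta2*, smooth muscle actin, measured 550.2 (F2) and 102 CPM (F3) in fresh-frozen against 454 (C2), 433 (C3) and 229 CPM (C5) in cryopreserved sperm, so the fresh-frozen samples differed from each other by more than the cryopreserved ones did. *col1a2*, a fibrillar collagen of connective tissue, had a log2 fold change of -0.98 ± 0.68 (SE, limma FDR = 0.340). *kdr*, a receptor for vascular endothelial growth factor, measured 182 (F2) and 159 CPM (F3) in fresh-frozen against 37.1 (C2), 121 (C3) and 4.53 CPM (C5) in cryopreserved sperm. Like *lhcgr* and *fshr*, it lay under both fresh-frozen values in each cryopreserved sample. Its log2 fold change was -2.54 ± 1.09 (SE, limma FDR = 0.265), that of its relative *kdrl* was -2.69 with the same FDR, and the medians of the lists were -0.87 for muscle and -1.70 for endothelium, beside -1.02 for all features.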
